A study of Bos taurus with 12 samples.

Results

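The fibulins and elastic fiber genes measured here are FBLN1, FBLN5, EFEMP1, EFEMP2, FBN1, ELN, MFAP2, MFAP4 and MFAP5. All probe sets of a Bovine GeneChip whose single gene symbol was one of these names were taken, which gave 13 probe sets for 9 genes, of 9155 genes with a single-symbol probe set. The tissue was mammary gland of 6 dry, pregnant Holstein cows, biopsied 3 weeks before calving. The biopsies were held as explants for 2 h in a medium that contained BrdU, a thymidine analog, beside insulin and hydrocortisone. From each cow, intralobular stroma and epithelium were laser captured from frozen sections, so that 6 stromal and 6 epithelial arrays form 6 pairs. Both tissues shared the culture and its agents. The stromal captures were aimed at fibroblasts, away from vessels and obvious immune cells, and still hold a mixture of cells. By the labels, cow 1 was in lactation number 3, cow 2 in number 2 and the other 4 cows in number 1. The study's methods call all the cows multiparous, so what the number counts is not settled, and it was not used.

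Elastic fibers let soft tissues stretch and recoil. They consist of a core of elastin, the product of ELN, laid on a scaffold of microfibrils whose main protein is fibrillin-1, the product of FBN1. Fibulins are secreted glycoproteins that bridge elastin, microfibrils, basement membranes and cells, and the microfibril-associated proteins MFAP2, MFAP4 and MFAP5 bind fibrillin, elastin or both. In connective tissue these proteins are made mainly by fibroblasts and smooth muscle cells.

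Values are log2 intensities per probe set that the authors computed by RMA, a method that corrects background, normalizes arrays by quantiles and summarizes the probes of a set. The array medians lay between 2.95 and 3.08, so values near 3 are close to background. A fold against a tissue near those medians is set in part by the background and is approximate, and levels of different probe sets are not compared. Differences are stroma minus epithelium on the log2 scale, from limma with cow as a block, with Benjamini-Hochberg adjustment over the probe sets with the highest means, as many as the study had kept, and a threshold of 0.05. Members below the lowest tested mean of 3.57 were read from the same fit over all 24016 probe sets and are called outside the tested range. Letters number the probe sets of a gene from the brightest. With 6 arrays per tissue, the number of arrays limits the precision.

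The captures differed in cell content as their labels say. Of the tested markers, 10 of 10 for fibroblasts passed in stroma and 12 of 12 for the luminal epithelium passed in epithelium. Of all tested genes, 4.48% passed in stroma and 4.62% in epithelium. A marker can be among those tested through 1 bright tissue. On the array, 3 fibroblast, 4 endothelial and 3 B and plasma cell markers lay outside the tested range, against 0 luminal ones. The mean of the fibroblast markers ranged from 8.52 to 9.56 in stroma and from 3.21 to 5.54 in epithelium. Markers of further cell types also differed by tissue. All 6 of 6 endothelial markers and both of the tested B and plasma cell markers, IGHM and JCHAIN, were higher in stroma, against 1 of 7 smooth muscle and pericyte markers and 0 of 4 monocyte and macrophage markers. Likewise, 2 of 7 myoepithelial, 1 of 2 adipocyte and 0 of 5 T and NK cell markers were higher in stroma, and 2 of 4 Schwann cell and nerve markers were higher in epithelium. The 2 myoepithelial calls were MYLK and TAGLN, and TAGLN is also the 1 smooth muscle and pericyte call. The other 5 myoepithelial markers, among them KRT5, KRT14 and KRT17, did not pass. The mean of 24 poly-A control probe sets, which report RNA added to each sample, was 7.66 ± 2.99 in stroma and 4.88 ± 1.21 in epithelium (SD, n = 6 each). Their highest stromal means were 10.99 in cow 5 and 10.39 in cow 6. The 3 prime minus 5 prime difference of GAPDH, a measure of RNA integrity, was 3.35 ± 0.90 in stroma and 2.67 ± 0.96 in epithelium (SD, n = 6 each). It was higher in stroma in 5 of 6 cows (two-sided exact permutation of signs, p = 0.281). Whether it bears on differences between probe sets of a gene was not tested.

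The fibulin and microfibril genes FBLN1, FBLN5, EFEMP1, FBN1 and MFAP5 were expressed at a greater level in stroma, and none of the 9 genes passed the test in epithelium. Of the 9 genes, 6 had a probe set among those tested and 5 of these were higher in stroma, where 4.48% of all tested genes were. ELN was tested and did not pass, and EFEMP2, MFAP2 and MFAP4 lay outside the tested range. By probe set, 6 of the 8 tested were called higher in stroma and 0 in epithelium, against 4.54% and 4.76% of all those tested. Because a probe set can pass the filter on its mean through 1 bright tissue, the members were also counted in the fit over all probe sets. In that fit, 6 of the 13 member probe sets were higher in stroma, against a background of 1.76% of 24016. The 6 stromal values lay above the 6 epithelial values for 7 of the 13, against 2.09% of all probe sets, and the difference was positive in all 6 cows for 9 of the 13, against 6.92%. One of these 9 is MFAP2, most of whose values lay under the array medians. The median difference over the 13 was 2.33, beside 0.07 over all probe sets. In captured tissue, fewer cells that express a gene and less of its RNA per cell cannot be told apart.

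**Figure D1:**
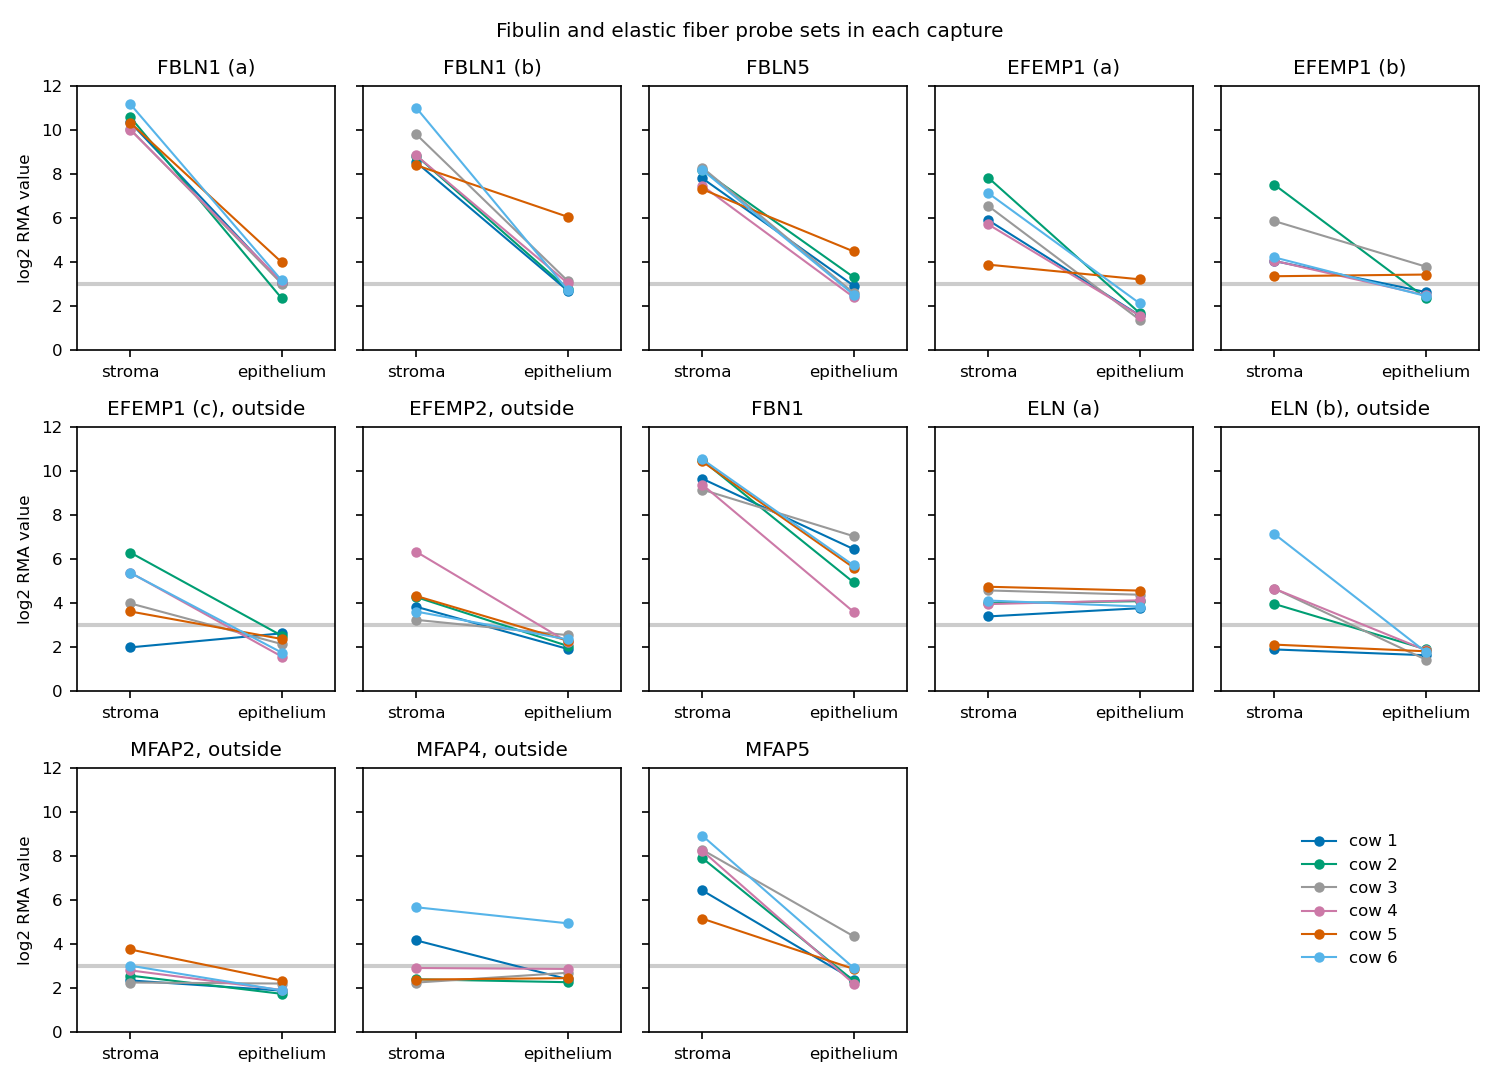
Log2 RMA value (vertical axis) of the 13 member probe sets in the stromal and epithelial capture of each cow. Lines connect both captures of 1 animal, the grey band spans the array medians from 2.95 to 3.08 and "outside" marks probe sets below the tested range. FBLN1, FBLN5, FBN1 and MFAP5 are higher in stroma than in epithelium in every cow, whereas the lines of ELN probe set a are level.

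FBLN1 encodes fibulin-1, a fibulin of basement membranes, blood vessels and elastic fibers that binds fibronectin. Its brighter probe set (a) read 10.35, 10.59, 10.04, 10.01, 10.33 and 11.18 in the stroma of cows 1 to 6, against 3.06, 2.37, 3.03, 3.13, 4.0 and 3.18 in the epithelium. The stromal captures were all high and close to each other, and the epithelial captures were near the array medians, with a gap of 6.01 between the lowest stromal and the highest epithelial value. The difference was 7.29 (standard error 0.38, n = 6 cows, adjusted p = 5.42e-05), or 156-fold. Because the epithelial values were close to background, the size of this difference is approximate. The other probe set (b) read 8.53, 8.84, 9.81, 8.85, 8.41 and 11.01 in stroma, against 2.71, 2.79, 3.16, 3.05, 6.06 and 2.74 in epithelium. The groups did not overlap, and the epithelial value of cow 5 stood apart from the other 5. The difference was 5.82 (standard error 0.67, adjusted p = 0.00108), and 6.52 without cow 5, which is over 1.5 times larger as a fold. The difference was larger at probe set a than at b by 1.47 ± 1.50 (SD, n = 6 cows), in 5 of 6 cows (two-sided exact permutation of signs, p = 0.0625, adjusted p = 0.104 over 5 pairs of probe sets), and did not pass.

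FBLN5 encodes fibulin-5, which binds elastin and integrins and is required for elastic fiber assembly in mice. Its sole probe set read 7.81, 8.19, 8.30, 7.47, 7.31 and 8.19 in stroma, against 2.94, 3.32, 2.61, 2.42, 4.49 and 2.53 in epithelium. The stromal values spanned less than 1 log2 unit, and the epithelial capture of cow 5 was again the highest of its tissue. FBLN5 was higher in stroma by 4.83 (standard error 0.45, n = 6 cows, adjusted p = 0.000411), a fold of 28.5 against an epithelial mean of 3.05. Over the alternative settings that tested it the difference ran from 4.66 to 5.23, and the highest adjusted p was 0.00311.

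EFEMP1 encodes fibulin-3, a fibulin with EGF-like repeats that binds TIMP3. It has 3 probe sets, and 1 of them passed the test. The brightest (a) read 5.91, 7.84, 6.56, 5.72, 3.89 and 7.14 in stroma, against 1.59, 1.69, 1.39, 1.58, 3.23 and 2.14 in epithelium. The groups did not overlap, but cow 5 had both the lowest stromal and the highest epithelial value, 0.67 apart. The difference was 4.24 (standard error 0.66, n = 6 cows, adjusted p = 0.00484), against an epithelial mean of 1.94 that lies below the array medians, and 4.95 without cow 5. Probe set b read 4.06, 7.52, 5.87, 4.07, 3.37 and 4.22 in stroma, against 2.65, 2.38, 3.80, 2.50, 3.44 and 2.47 in epithelium, so the groups overlapped. Its difference of 1.98 (standard error 0.61) did not pass (adjusted p = 0.0829, and 0.0508 to 0.159 over 13 alternative settings), and it was 1.34 without cow 2, whose stroma was the brightest. Probe set c, outside the tested range, had stromal values from 2.00 to 6.30 and epithelial values from 1.58 to 2.64, with a difference of 2.28 (standard error 0.63, adjusted p = 0.123). In cow 1 it was lower in stroma by 0.64, and without that cow the adjusted p was 0.04996. The difference at probe set a exceeded that at b in all 6 cows, by 2.26 ± 1.10 (SD, n = 6 cows, two-sided exact permutation of signs, p = 0.03125, the lowest value possible with 6 cows, adjusted p = 0.0781). The difference at a exceeded that at c by 1.96 ± 2.02 (SD, n = 6 cows, exact p = 0.09375, adjusted p = 0.117), and the difference at b minus that at c was -0.30 ± 1.78 (SD, n = 6 cows, exact p = 0.75, adjusted p = 0.75).

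EFEMP2 encodes fibulin-4, which is needed in mice for the cross-linking of elastin and for the integrity of arteries. Its probe set was dim and lay outside the tested range, with 3.84, 4.28, 3.25, 6.34, 4.33 and 3.62 in stroma, against 1.93, 2.06, 2.55, 2.24, 2.30 and 2.36 in epithelium. All stromal values lay above all epithelial values and above the medians of their arrays, and none of the epithelial values did. The difference of 2.04 (standard error 0.42, n = 6 cows, 95% interval 1.04 to 3.03) missed the threshold in the fit over all probe sets (adjusted p = 0.0513). It passed without the cow block (adjusted p = 0.0181), with a random block (0.0141), with an intensity trend and robust prior together (0.0467) and after arrays were centered on their medians over the tested probe sets (0.0364). Under the other 9 of 13 alternative settings it did not pass, with adjusted p up to 0.172, reached without cows 5 and 6. Without cow 4, the brightest stromal capture, the difference was 1.62 (adjusted p = 0.0613).

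FBN1 encodes fibrillin-1, the large protein that polymerizes into microfibrils and binds latent TGF beta complexes. Its probe set read 9.65, 10.49, 9.16, 9.39, 10.43 and 10.54 in stroma, against 6.46, 4.95, 7.04, 3.61, 5.62 and 5.72 in epithelium. The groups were 2.11 apart, and all 6 epithelial captures lay above the medians of their arrays, which of the other members was true only of ELN probe set a. The epithelial values spread more widely (SD 1.2, n = 6) than the stromal ones (SD 0.62, n = 6), and the smallest difference, 2.11 in cow 3, went with the highest epithelial value. FBN1 was higher in stroma by 4.38 (standard error 0.54, n = 6 cows, adjusted p = 0.00143), or 20.8-fold. It was also the only member bright enough to be kept when a probe set had to lie 1 log2 unit above the array median on at least 8 arrays (adjusted p = 0.00195).

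MFAP5 and MFAP2 encode microfibril-associated glycoproteins that bind fibrillins. The probe set of MFAP5 read 6.44, 7.91, 8.29, 8.24, 5.16 and 8.93 in stroma, against 2.39, 2.35, 4.36, 2.21, 2.88 and 2.93 in epithelium. The groups did not overlap, with the lowest stromal value in cow 5 and the highest epithelial value in cow 3. MFAP5 was higher in stroma by 4.64 (standard error 0.55, n = 6 cows, adjusted p = 0.00123), against an epithelial mean of 2.85 that lies below the array medians. MFAP2 was outside the tested range, at 2.36, 2.58, 2.26, 2.82, 3.76 and 3.03 in stroma, against 1.90, 1.75, 2.22, 1.93, 2.35 and 1.91 in epithelium. Only 2 of its 12 values lay above the median of their own array, both in stroma. Its difference was 0.79 (standard error 0.23, 95% interval 0.25 to 1.34, adjusted p = 0.141), positive in all 6 cows, and at this level its size is set in part by the background.

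MFAP4 encodes a fibrinogen-domain protein that binds elastin and fibrillin and is abundant in arterial walls. Its probe set, also outside the tested range, read 4.18, 2.41, 2.26, 2.92, 2.40 and 5.68 in stroma, against 2.42, 2.28, 2.71, 2.88, 2.46 and 4.95 in epithelium. Cow 6 was brightest in both of its captures, and 4 of the 6 cows had values at or under the array medians in both tissues. The difference of 0.36 (standard error 0.31, 95% interval -0.37 to 1.09, adjusted p = 0.603) did not pass.

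ELN encodes tropoelastin, the monomer of elastin, and has 2 probe sets, neither of which passed the test. Probe set a read 3.40, 4.0, 4.58, 3.96, 4.75 and 4.12 in stroma, against 3.78, 4.10, 4.39, 4.13, 4.58 and 3.85 in epithelium. Both captures of a cow were close, at most 0.37 apart, and stroma was higher in 3 of 6 cows. The mean difference was 0.00056 (standard error 0.32, n = 6 cows, 95% interval -0.72 to 0.72, adjusted p = 0.999), with an SD of 0.25 between cows, the smallest among the 13 probe sets. The standard error draws on the variance of all probe sets in the fit as well as on this SD. In the fit over all probe sets the standard error was 0.19. Probe set b lay outside the tested range and read 1.91, 3.97, 4.67, 4.67, 2.12 and 7.15 in stroma, against 1.64, 1.92, 1.45, 1.87, 1.82 and 1.80 in epithelium. The epithelial captures were all below the array medians, and so were the stromal captures of cows 1 and 5, while the other 4 stromal captures lay above them. The difference of 2.33 (standard error 0.67, 95% interval 0.75 to 3.91) was positive in all 6 cows and did not pass over all probe sets (adjusted p = 0.136, and 0.0936 to 0.278 over 13 alternative settings). Without cow 6, whose stroma was the brightest, it was 1.73. Within cows, the difference at a was smaller than at b in all 6, by 2.33 ± 1.80 (SD, n = 6 cows, two-sided exact permutation of signs, p = 0.03125, the lowest value possible with 6 cows, adjusted p = 0.0781 over 5 pairs). Which of the 2 probe sets reports elastin mRNA was not tested, so the values of a are those of a probe set and not of the gene.

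**Figure D2:**
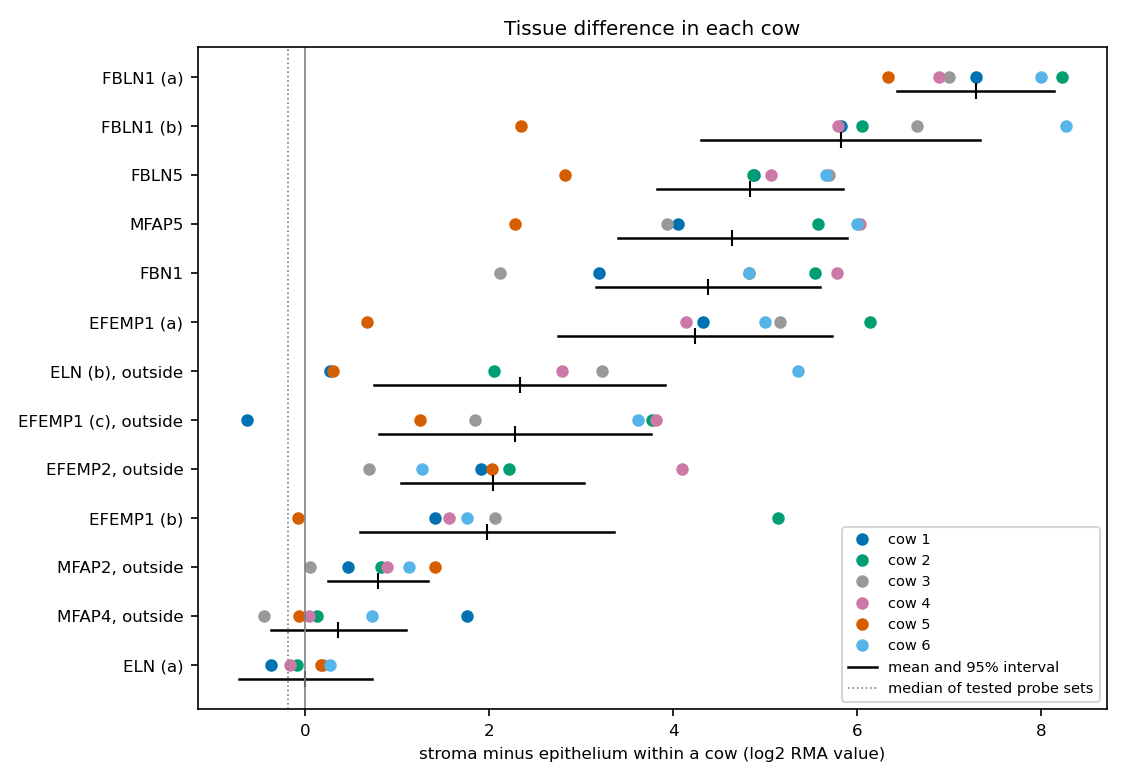
Stroma minus epithelium difference (log2 RMA value, horizontal axis) of each member probe set in each cow, ordered by the mean, with the mean and 95% interval of the fit as a black bar below the points. The points of FBLN1 probe set a lie between 6.33 and 8.22, those of ELN probe set a between -0.37 and 0.27, and cow 5 (orange) is the lowest point for FBLN1 a and b, FBLN5, MFAP5 and EFEMP1 a and b.

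Of the 6 member probe sets called higher in stroma, 5 had their smallest difference in cow 5, and 4 had their highest epithelial value there. Among all 455 probe sets called higher in stroma, the smallest difference was in cow 5 for 33.6% and the highest epithelial value for 35.4%. Fibroblast markers in the epithelial capture of cow 5 averaged 5.54, against 3.21 to 4.74 in the other 5 epithelial captures, and 7 of the 10 had their highest epithelial value there. Luminal markers in that capture averaged 7.40, the lowest of the 6. Smooth muscle and pericyte markers averaged 5.45 in the stroma and 5.79 in the epithelium of cow 5, and were higher in stroma by 0.82 to 1.86 in the other 5 cows. The stromal capture of cow 5 had the lowest mean of the fibroblast markers, 8.52, and the highest mean of the poly-A controls. Whether cell content or added RNA had a part in the values of cow 5 was not tested. Without cow 5, all 6 probe sets were still called, and FBLN1 a, FBLN5, FBN1 and MFAP5 differed by 7.48, 5.23, 4.29 and 5.12.

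**Figure D3:**
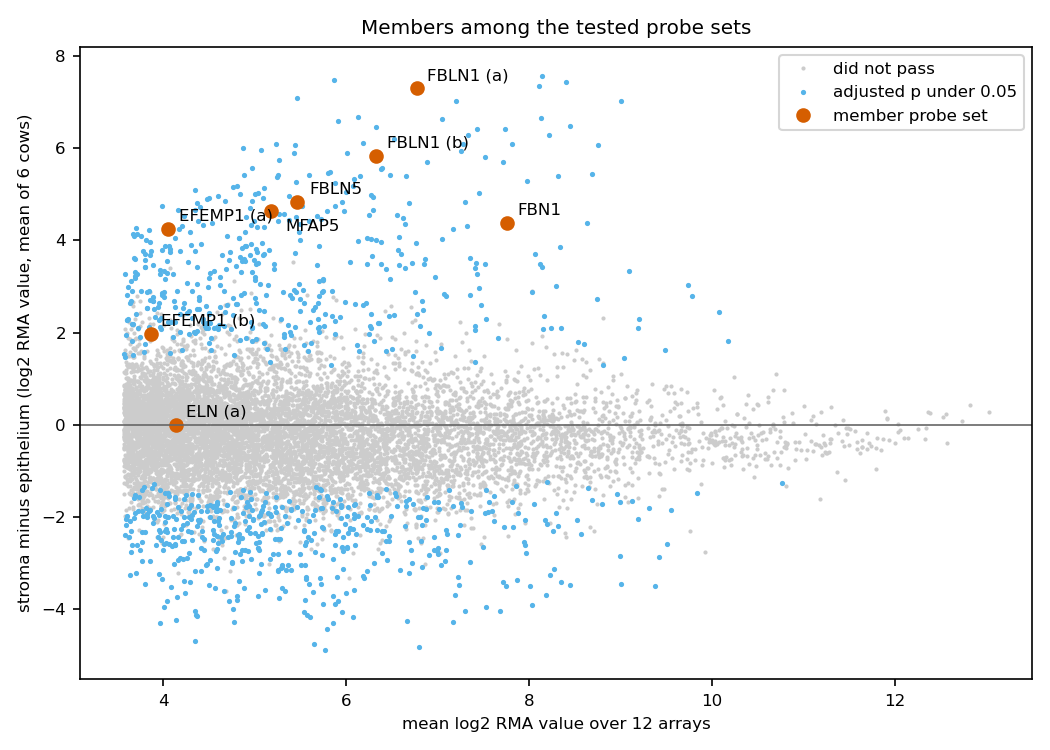
Stroma minus epithelium difference (mean of 6 cows, vertical axis) against the mean log2 RMA value over 12 arrays (horizontal axis) of the tested probe sets. Blue marks those past the threshold of 0.05, grey the rest, and orange the 8 tested member probe sets. FBLN1 a lies near the top at 7.29, and EFEMP1 b and ELN a lie among the grey points.

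Likeness of pattern was measured by Pearson's r of log2 values over the 12 arrays, among 5222 tested genes. The points share 2 tissues and 6 cows, so r holds the tissue difference as well as the variation among cows, and it is given as a description. FBLN1 was nearest to UCHL1, a ubiquitin hydrolase (r = 0.992), to SFRP2, a secreted modulator of Wnt signals (r = 0.991), and to FGL1, a fibrinogen-like protein (r = 0.987). FBLN5 was nearest to the chemokine CXCL12 (r = 0.985), to the proteoglycan LUM (r = 0.982) and to FGL1 (r = 0.980). FBN1 was nearest to FGL1 (r = 0.957), TPST2 (r = 0.957) and VIM, the intermediate filament of mesenchymal cells (r = 0.946). EFEMP1 was nearest to GNG11, SGCE and FHL1 (r = 0.956 to 0.969), and MFAP5 to COL21A1, EGFLAM and APOD (r = 0.959 to 0.968). All of these neighbors were themselves higher in stroma, which their choice by r over 2 tissues makes likely in advance. Among members, FBLN1 and FBLN5 were nearest to each other (r = 0.979). ELN probe set a was nearest to GSG1L, TNFRSF1B and CSF1 (r = 0.822 to 0.913), none of which passed the test, and its nearest member was MFAP2 at r = 0.403. The CSF1 values are those of its brightest tested probe set, with a difference of 0.14. The study lists CSF1 among growth factors with greater expression in stroma, at a larger fold than this probe set shows. Which CSF1 probe set the study's entry rests on was not examined. Of the 3 genes outside the tested range, EFEMP2 was nearest to CCND2, CLDN5 and PAPPA (r = 0.904 to 0.917), MFAP2 to MADCAM1, ASPSCR1 and QRFP (r = 0.907 to 0.956) and MFAP4 to PRELP, KIF20A and TFB1M (r = 0.845 to 0.913).

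Genes known to assemble, cross-link, degrade or bind elastic fibers were taken from lists made from general knowledge. The lists were made with earlier results of these data known, so their counts are a description. Of 73 such genes, 47 had a single-symbol probe set and 24 were tested, of which 6 were higher in stroma, 2 were higher in epithelium and 16 did not pass, with a median difference of 0.62 beside -0.20 over all tested genes. Of all tested genes, 4.48% were called in stroma and 4.62% in epithelium. A listed gene can be among those tested through 1 bright tissue. Of 4 tested relatives of the microfibril and fibulin proteins, 1 was called. It was VCAN, the proteoglycan versican, which binds fibulins and fibrillin and was higher in stroma by 4.75 (standard error 0.68, adjusted p = 0.00351), and by 5.49 without cow 5. EMILIN1, a glycoprotein at the elastin and microfibril interface, had a difference of 1.25 (adjusted p = 0.0841), EMILIN2 one of 0.48 (adjusted p = 0.409) and MFAP3 one of -1.05 (adjusted p = 0.474). Neither of the 2 tested cross-linking genes passed. TGM2, a transglutaminase, differed by 2.44 (adjusted p = 0.0608) and LOXL4, a lysyl oxidase, by 1.36 (adjusted p = 0.189). The main lysyl oxidases of elastin, LOX and LOXL1, were outside the tested range, with differences of 0.77 (adjusted p = 0.500) and 2.13 (adjusted p = 0.107).

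Among proteases that can cut elastin or microfibrils and their inhibitors, 4 of 8 tested genes were higher in stroma and 1 was higher in epithelium. The shares over all tested genes were 4.48% and 4.62%. Of the 14 genes of this list on the array, 6 lay outside the tested range. MMP2, a gelatinase, ranged from 7.90 to 9.18 in stroma and from 2.15 to 4.66 in epithelium, a difference of 5.25 (standard error 0.47, adjusted p = 0.000346). CTSK, a collagen- and elastin-cutting cathepsin, was higher in stroma by 4.17 (adjusted p = 0.00435) and TIMP2, an inhibitor of MMP2, by 3.59 (adjusted p = 0.00206). TIMP3, the matrix-bound inhibitor that fibulin-3 binds, was higher by 2.12 (adjusted p = 0.0317), which lost its call without any 1 of cows 1, 2, 3, 4 and 6 (adjusted p up to 0.101) and without a filter (0.0620). SERPINA1, the inhibitor of neutrophil elastase, was lower in stroma in all 6 cows, at -2.47 (adjusted p = 0.0298). It lost its call without any 1 of cows 1 to 5 (adjusted p up to 0.0914), without the cow block (0.0519) and without a filter (0.0697).

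Of 9 tested receptors of elastin or fibulins, ITGA5, the alpha chain of the main fibronectin receptor, was higher in stroma by 3.67 (standard error 0.42, adjusted p = 0.00102), and 7 did not pass, with differences from -1.13 for LGALS3 to 1.10 for ITGB1. ITGB6, an epithelial integrin chain that activates TGF beta, was lower in stroma, at -2.18 (adjusted p = 0.0284), in 5 of 6 cows, and lost its call without any 1 of cows 1 to 5 (adjusted p up to 0.0864) and without a filter (0.0574). Of 8 growth factors that microfibrils can hold, 1 was tested. It was TGFB2, with a difference of -1.21 (adjusted p = 0.139), or 2.32-fold higher in epithelium. TGFB2 was lower in stroma in all 6 cows but did not pass the adjusted threshold. The study lists TGFB2 among growth factors with greater expression in epithelium, a list drawn by p values before adjustment. The 23 listed genes outside the tested range had differences from -0.45 to 2.13, and 1 of them, MMP14, passed in the fit over all probe sets, with a difference of 1.48 (adjusted p = 0.0446).

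**Figure D4:**
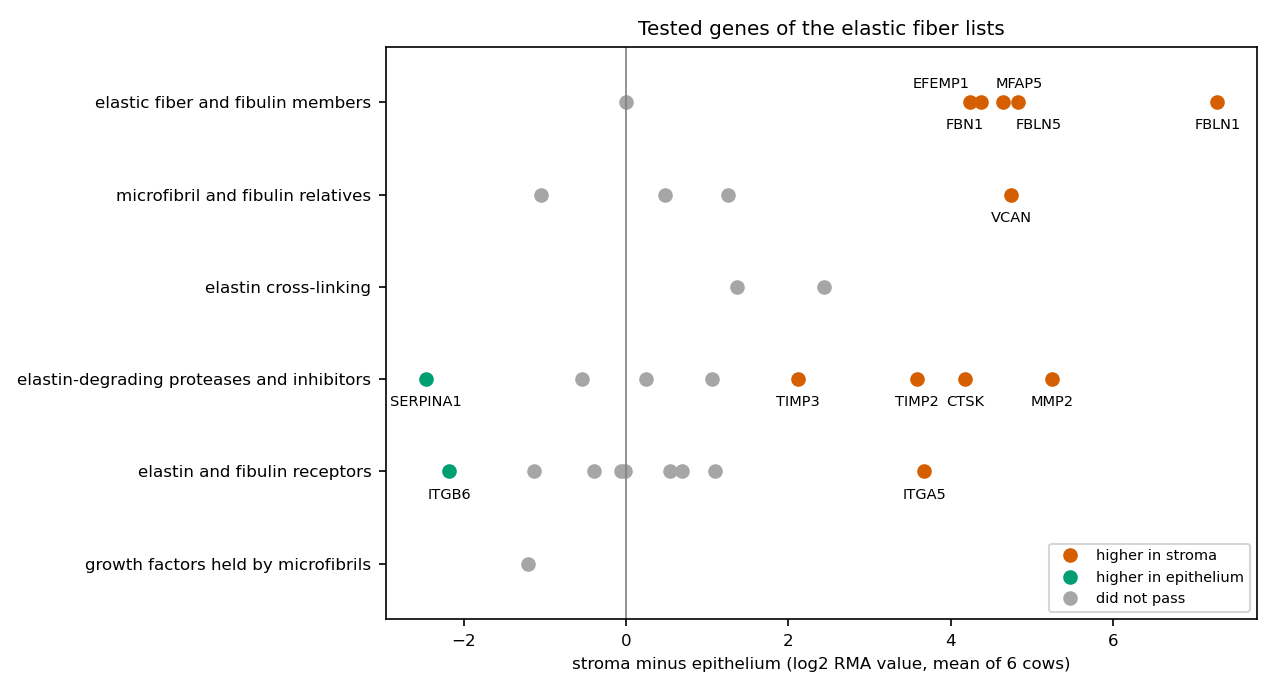
Difference of stroma minus epithelium (log2 RMA value, 6-cow mean, horizontal axis) of each tested gene of the members and of 5 lists of related genes. Orange points were higher in stroma and green points higher in epithelium at the threshold of 0.05, and grey points missed it. The 5 called members lie at 4.24 or above, and the point near 0 is ELN probe set a, while b, at 2.33, was outside the tested range and is not drawn.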

How the data were processed

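RNA of laser-captured stroma and epithelium from 6 cows was amplified (NuGEN WT Ovation Pico) and hybridized to Bovine Affymetrix GeneChips. From the scans, the authors made log2 intensities by RMA, with quantile normalization over 24 arrays that include these 12, and deposited them. They ran from 0.78 to 14.4. Detection calls were not used here, so the probe sets the study kept were replaced by as many with the highest means, of 24016 that are not controls. Gene symbols came from the platform annotation, and those of all 9 members matched the reference annotation by gene ID. No sequences or coordinates were used here.

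Fits used R 4.3.3 and limma 3.58.1, with terms for tissue (tested) and cow (a fixed block) under the default eBayes prior, and were tested on simulated data. The labels give both captures of a cow the same replicate number, which sets the pairs. Deviations of the 2 captures from their tissue means correlated at 0.03 to 0.20 over the 6 cows. The stromal capture correlated best with the epithelial capture of its own cow in cows 1, 4, 5 and 6, and not in cows 2 and 3. Where a gene had several tested probe sets, the brightest stood for it. Named are all members, up to 4 called genes of each list per tissue, and a few others chosen by role after their values were seen, and likeness names the 3 genes of highest r. Members and lists were chosen with earlier results of these data known. Single measures were compared by exact sign-flip permutation over cows, whose p values rest on these 6 cows alone. In the limma fits, the variance of a probe set is drawn toward a prior shared by all probe sets fitted. Their standard errors, intervals and p values therefore reflect that prior as well as the spread between these 6 cows. Alternatives were the block, the prior, the filter, the normalization, gene means over probe sets, and each cow left out. Leaving out cows 5 and 6 together was chosen after seeing the data.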

Additional observations from a re-analysis of the deposited data

Results flagged for a closer look

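Of 26 groups of 6 arrays (13 probe sets in each tissue), 4 held a sample far from the other 5, by the gap to its nearest neighbor as a share of the whole range. For normally spread values, about 1 in 20 such groups would, or 1.3 of 26. The groups share the same 12 arrays and some share a gene, and many values lie near background. The 4 was therefore not tested against the 1.3. FBLN1 probe set b read 6.06 in the epithelium of cow 5, above a next highest value of 3.16. EFEMP2 read 6.34 in the stroma of cow 4, above 4.33. MFAP4 read 4.95 in the epithelium of cow 6, above 2.88, and the stromal value of the same cow was also the highest of its tissue. MFAP5 read 4.36 in the epithelium of cow 3, above 2.93.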

How the results depend on the processing

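The count of member genes higher in stroma stayed at 5 under 14 of 16 alternatives. It was 4 with the brightest 5000 probe sets, where EFEMP1 was not tested, and 1 with probe sets that lie 1 log2 unit above the array median on at least 8 arrays, which keeps FBN1 alone because 8 arrays are more than 1 tissue has. The count of member probe sets, 6, was likewise 1 under that filter, and 5 with the brightest 5000 probe sets, where 5 were tested. No member gene was called in epithelium under any of the 16. With each cow left out in turn, 5 to 5 genes and 6 to 6 probe sets of the members were higher in stroma and 0 to 0 genes in epithelium, and the background was 331 to 450 probe sets in stroma and 267 to 404 in epithelium, in place of 455 and 477. The background counts were 239 in stroma and 274 in epithelium with the brightest 5000 probe sets, 193 and 267 with the filter on 8 arrays, and 360 and 245 without cows 5 and 6. Without the replicate block, they were 481 and 462, with 5 member genes and 6 member probe sets in stroma. Beside EFEMP2 and SERPINA1, whose values stand with those genes, the block changed no call of a member or of the 8 genes of the 5 related lists called among the tested probe sets. Centering on the median of the tested probe sets gave a median difference of -0.0096 in place of -0.18 and 41.2% of calls in epithelium in place of 51.2%. The difference of ELN probe set a, near 0, changed sign with cows left out, with -0.054 to 0.075 over single cows and -0.11 without cows 5 and 6. Differences under the array medians are limited by background.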
